A study of Mus musculus with 6 samples.

Results

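The myosin light chain family and its dedicated kinases were read as 10 genes: Myl1, Myl2, Myl3, Mylpf, Myl4, Myl6, Myl6b and Myl9, which encode light chains, and Mylk2 and Mylk, which encode kinases. They were chosen by gene symbol, and each of the 10 matched 1 of the 37477 Ensembl gene IDs counted. All 10 also passed the filter on low counts that 13848 genes passed. RNA sequencing had been run on muscle labelled quadriceps from C57BL/6 mice aged 20 weeks. Wild-type (WT) mice were set against mice with a muscle-specific knockout of estrogen receptor alpha (called KO here), with 3 libraries in each group. The sources used here do not give the promoter that drove the deletion or whether each library came from 1 animal. P-values therefore measure the spread between these libraries, which may be technical.

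A myosin motor is a pair of heavy chains, and the neck of each heavy chain is wrapped by an essential and a regulatory light chain that stiffen the lever arm. Fast and slow fibres use different genes for each position. When calcium rises in a fibre, it switches on myosin light chain kinase, which phosphorylates a serine near the start of the regulatory chain; in skeletal muscle this tunes force, while in smooth muscle it starts contraction. Myosin phosphatase removes the phosphate.

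The coding starts of the 3 regulatory chains among the members are shown because they carry the codon of that serine, the point where chains and kinases of the family meet. Each line gives the first 26 codons from the ATG, 5′ to 3′, of the first-listed GENCODE M21 transcript (GRCm38), with the codon of the serine that the kinase phosphorylates in capitals.
Myl2: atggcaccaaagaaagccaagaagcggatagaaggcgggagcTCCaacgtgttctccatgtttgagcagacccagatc
Mylpf: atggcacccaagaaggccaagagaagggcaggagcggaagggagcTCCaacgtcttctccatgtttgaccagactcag
Myl9: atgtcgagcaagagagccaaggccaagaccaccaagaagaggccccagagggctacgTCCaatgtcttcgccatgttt
Counted from the ATG as codon 1, the serine was codon 15 in Myl2, 16 in Mylpf and 20 in Myl9, and the codon was TCC in each. Coding sequences were taken as the longest open reading frames of the first-listed transcripts, and annotated coding regions were not used. A frame may therefore begin before the start codon in use, as could hold for Myl3, whose frame had 235 codons. The same site was not found in the frames of the 5 essential chains Myl1, Myl3, Myl4, Myl6 and Myl6b. Over the aligned coding bases Myl2 was 71.5% identical to Mylpf and 66.3% to Myl9, and Mylpf was 69.0% identical to Myl9. Among the essential chains the nearest pair was Myl6 and Myl6b at 80.3%, followed by Myl3 and Myl4 at 78.4%.

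How far reads can be assigned to 1 gene was read from shared stretches of transcript. Of all 50-base stretches in their annotated transcripts, Mylpf, Myl9 and Mylk2 shared 0.0% with transcripts of any other gene. For Myl2, Myl3, Myl4 and Myl6b the share was 0.864%, 2.46%, 0.043% and 0.476%. It reached 11.7% for Myl1, all with the pseudogene Mylf-ps, 8.38% for Myl6, with 5 processed pseudogenes such as Gm5526, and 4.56% for Mylk. The sources used here do not say how reads that fit several places were treated, so counts of Myl1, Myl6 and Mylk carry that uncertainty. Strand was not kept by the library kit, and exons of genes on the opposite strand overlapped 3.08% of the exonic bases of Myl2 (Ccdc63), 4.65% of those of Myl3 (Pth1r) and 6.85% of those of Mylk.

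Total counts were 7388365 to 8560244 per library. Esr1, the gene knocked out, had 41 to 50 counts in WT libraries and 16 to 22 in KO libraries, a log2 difference of -1.45 ± 0.23 (SE) with an adjusted p of 0.145 in edgeR's quasi-likelihood test. The skeletal muscle genes Acta1, Ckm, Des, Mb, Ttn and Neb summed to 170381 to 221936 CPM (counts scaled by library size) across the libraries. Heart muscle also makes Myl2, Myl3 and Myl4, and 8 heart markers were read beside them. Myl7, Nppa, Nppb, Tnni3 and Mybpc3 had 0 to 3 counts per library, and Myl7 had 0 in all 6, where 0 allows up to 3 counts (counting error only). Ryr2 had 4 to 9 counts in WT and 2 to 3 in KO, and Tnnt2, a troponin of heart and of developing skeletal muscle, had 34 to 55 in WT and 23 to 40 in KO. The heart heavy chain gene Myh6 was at 2432 ± 268 CPM in WT (SD, n = 3), and 20.2% of its 50-base stretches occur in transcripts of other genes, chiefly the slow heavy chain gene Myh7. In bulk tissue fewer cells of a type and less RNA per cell cannot be told apart.

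Slow sarcomeric chains led the family, fast ones followed, and the chains and kinase of smooth muscle and other cells lay far below, in the same order of group means in both genotypes. Levels of different genes are given as CPM per kilobase of the first-listed transcript, which allows for gene length. Myl2, the slow regulatory chain, stood highest at 6799 ± 571 in WT and 6837 ± 92.7 in KO. It was followed by Myl3, the slow essential chain, at 3470 ± 263 and 3617 ± 401. Next came the fast forms, Mylpf, the fast regulatory chain, at 1283 ± 42.2 and 1408 ± 72.7, and Myl1, the fast essential chain, at 391 ± 20.2 and 390 ± 19.1 (SD, n = 3 each). These 4 sarcomeric chains did not overlap one another in any of the 6 libraries. They held 97.5% to 98.0% of the family's counts, and the family held 0.896% to 1.04% of all counts in a library.

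Below the sarcomeric chains lay a gap of 7.02 times between Myl1 and Myl6, the essential chain of smooth muscle and non-muscle cells, at 52.7 ± 5.86 CPM per kilobase in WT and 58.6 ± 3.33 in KO. Mylk2, the skeletal muscle kinase, followed at 35.5 ± 1.58 and 37.4 ± 3.57. Myl9, the smooth muscle regulatory chain, stood at 21.3 ± 3.59 and 21.2 ± 0.686 (SD, n = 3 each). The lowest 3 were Myl4, the essential chain of embryonic muscle and atria, at 9.55 ± 1.44 and 7.80 ± 0.589, Myl6b, a slow and non-muscle essential chain, at 6.45 ± 0.198 and 6.66 ± 1.6, and Mylk, the kinase of smooth muscle and non-muscle cells, at 3.56 ± 0.709 and 2.91 ± 0.401 (SD, n = 3 each). Myl4 and Myl6b were the only neighbours in this order whose 6 libraries overlapped. With merged exons of all annotated transcripts as the length, Myl6 dropped below Myl9 (from rank 5 to 7) and Myl4 below Mylk, whose merged exons are 3187 bases for Myl6 and 4637 for Myl4 against 665 and 879 for the first-listed transcripts; the order of the first 4 stayed as it was. The gap below Myl1 was then 5.59 times, to Mylk2, and Myl1 stood 18.7 times above Myl6 in WT.

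**Figure D1:**
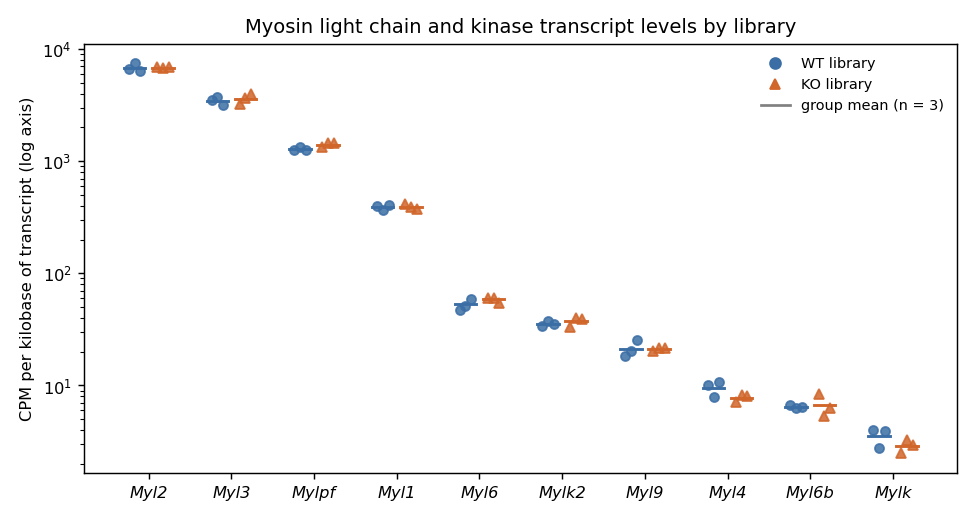
Transcript level of each family member in CPM per kilobase of the first-listed transcript (vertical log axis) in 3 WT (circles) and 3 KO (triangles) libraries, with lines at the group means. The 4 sarcomeric chains lie between 368 and 7427, and the other members lie at 60.7 or below.

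The main comparison asked whether any light chain or kinase differed between KO and WT muscle. None passed the adjusted threshold of 0.05 in edgeR's quasi-likelihood test: 0 of the 10 members were called, where 0.0% of all 13848 genes tested were called. At an unadjusted p under 0.05 there were again 0 of 10 members, against 4.26% of all genes (590). Groups failed to overlap for 0 of 10 members, against 10.4% of all genes. The estimates of 6 members were above 0 and those of 4 below, and their median log2 difference (KO minus WT) was 0.03. Over all genes 6827 estimates were above 0 and 7021 below, and the median was -0.0024. Over all genes DESeq2 called 3 and limma voom called 1, none of them members. The authors' deposited table likewise held 0 members at an adjusted p under 0.05, where 0.0133% of its IDs passed, and every member had an adjusted p of 1 there. Its fold changes for Myl1 and Myl9, both near 0, had the opposite sign to those found here.

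Precision differed among members, and it sets what size of change these libraries could have shown. For the 10 members 95% intervals reached a median of 0.20 log2 units to either side of the estimate, and for all genes tested 0.33. For the abundant Myl1 the interval of the KO to WT ratio ran from 0.896 to 1.11 and for Myl2 from 0.894 to 1.13. For the scarce Myl6b it ran from 0.780 to 1.37 and for Myl4 from 0.634 to 1.05. Myl2 varied by 8.40% between WT libraries (coefficient of variation), where counting error alone gives 0.543%, and by 1.36% between KO libraries, where it gives 0.517%. For Myl4, with 51 to 74 counts per library, the spread was 15.0% in WT and 7.55% in KO, where counting error alone gives 12.5% and 13.3%.

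**Figure D2:**
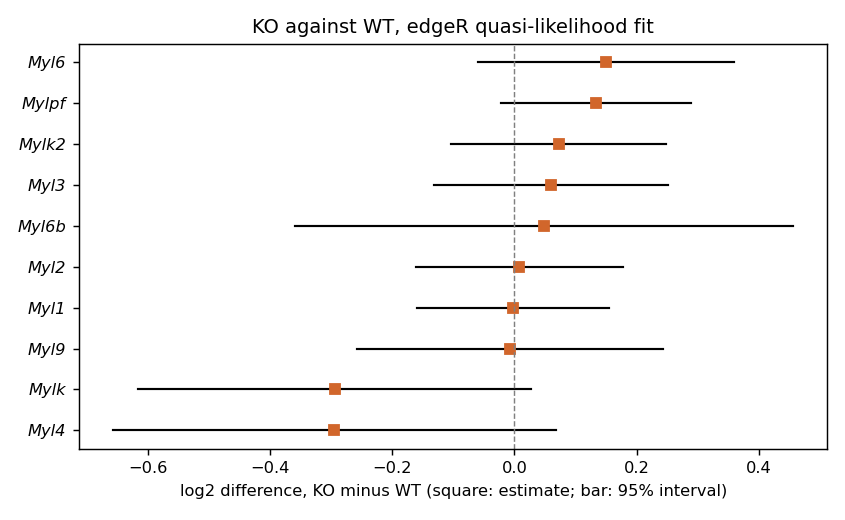
Log2 difference of KO minus WT for each member (horizontal axis) from the edgeR fit over all genes, with squares for the estimates and bars for 95% intervals. All 10 intervals include 0, and the estimates run from -0.29 for Myl4 and Mylk to 0.15 for Myl6.

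Regulatory chains of the sarcomere came first. Myl2, the regulatory chain of slow fibres and of heart ventricle (ENSMUSG00000013936, chromosome 5, 122100951 to 122113472, plus strand, GRCm38), was at 4408, 4917 and 4178 CPM in WT replicates 1, 2 and 3 and at 4570, 4456 and 4552 CPM in KO replicates 1, 2 and 3. The 3 KO libraries sat close together inside the WT range. Its log2 difference was 0.0079 ± 0.080 (SE), with an adjusted p of 0.999 in edgeR's quasi-likelihood test. Mylpf, the phosphorylatable chain of fast fibres (ENSMUSG00000030672, chromosome 7, 127208890 to 127214298, plus strand), was at 972, 1019 and 958 CPM in WT and at 1014, 1103 and 1117 CPM in KO replicates 1, 2 and 3. KO replicates 2 and 3 lay above every WT library, and KO replicate 1 lay just under WT replicate 2. The log2 difference of Mylpf was 0.13 ± 0.074 (SE) with an adjusted p of 0.989 (0.0874 unadjusted) in edgeR's quasi-likelihood test.

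Essential chains of the sarcomere showed no more separation. Myl3, the essential chain of slow fibres and ventricle (ENSMUSG00000059741, chromosome 9, 110741861 to 110769798, plus strand), was at 3311, 3463 and 2981 CPM in WT and at 2998, 3421 and 3748 CPM in KO replicates 1, 2 and 3. KO replicate 3 was the highest and WT replicate 3 the lowest of the 6, and the groups overlapped over most of their range. Its log2 difference was 0.060 ± 0.090 (SE) with an adjusted p of 0.993 in edgeR's quasi-likelihood test. Myl1, the essential chain of fast fibres (ENSMUSG00000061816, chromosome 1, 66924295 to 66945404, minus strand), was at 434, 398 and 438 CPM in WT and at 445, 419 and 404 CPM in KO. The WT and KO values interleaved. The log2 difference of Myl1 was -0.0019 ± 0.074 (SE). Myl1 makes a long and a short protein from separate start sites, and the gene-level counts hold both.

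The slow forms outweighed the fast forms at both light chain positions, and by more than among the heavy chains. Per kilobase Myl2 made up 84.1% ± 0.673 of the regulatory pair in WT and 82.9% ± 0.848 in KO, and Myl3 made up 89.8% ± 1.11 and 90.2% ± 1.44 of the essential pair. Myh7, the slow heavy chain, made up 60.1% ± 2.39 in WT and 59.1% ± 1.10 in KO of the 4 adult heavy chains on the same scale (SD, n = 3 each). The lowest light chain share in any library, 82.4%, lay above the highest heavy chain share, 61.9%. With merged exon length the WT shares were 71.3% (regulatory), 88.6% (essential) and 55.3% (heavy). Of the 50-base stretches of Myh7, 20.0% occur in transcripts of other genes, and genes on the opposite strand overlap 13.3% of its exonic bases. Such sharing was not measured for Myh1, Myh2 and Myh4, so the heavy chain shares carry that uncertainty. Mouse quadriceps is known as a mainly fast muscle, and these slow shares go against that background; quadriceps is therefore given here as the label of the samples. Of the other slow fibre markers Atp2a2, the slow calcium pump gene, was at 6349 ± 506 and Tnnt1, the slow troponin T gene, at 4019 ± 132 CPM in WT (SD, n = 3 each), but Tnnc1, the slow troponin C gene, had 0 to 1 counts per library. The read counter and annotation are not named, and whether the count of Tnnc1 reflects its level was not tested. Light chains were also set against the heavy chains, with values that depend on the length used. By the first-listed transcript, regulatory chains summed to 1.38 ± 0.0996 times the heavy chains per kilobase in WT and 1.42 ± 0.0387 times in KO, and essential chains to 0.657 ± 0.0267 and 0.691 ± 0.0502 times. By merged exons the WT values were 0.711 and 0.394, so that regulatory chains stood above the heavy chains by one length and below them by the other.

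**Figure D3:**
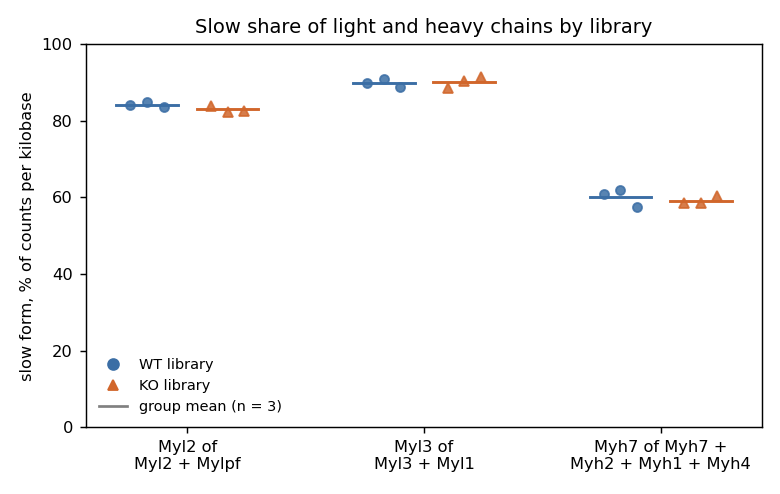
Share of the slow form, in percent of counts per kilobase (vertical axis, from 0 to 100), among regulatory chains, essential chains and adult heavy chains, for 3 WT (circles) and 3 KO (triangles) libraries with lines at the group means. Light chain shares lie between 82.4% and 91.5% and heavy chain shares between 57.4% and 61.9%, with WT and KO overlapping in each.

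Ratios within a library need no scaling between libraries, and the length used sets their level but, for single pairs of genes, not the difference between groups. They are given by the first-listed transcript, and 4 such ratios were tested by exact permutation, two-sided, which cannot go below a p of 0.1 with 3 against 3. Myl2 to Mylpf, slow to fast regulatory chain, was 5.25, 5.58 and 5.05 per kilobase in WT and 5.21, 4.67 and 4.71 in KO replicates 1, 2 and 3. KO replicates 2 and 3 were the lowest of the 6 and KO replicate 1 lay inside the WT range. The log2 difference was -0.12, with an exact permutation p of 0.2 and 0.8 adjusted over the 4 ratios. Myl3 to Myl1, slow to fast essential chain, was 8.82, 10.05 and 7.87 in WT and 7.78, 9.44 and 10.7 in KO, an overlap over nearly the whole range (exact permutation p = 0.8, adjusted 0.9). Regulatory to essential chains stood at 2.09 ± 0.0715 in WT and 2.07 ± 0.190 in KO (SD, n = 3 each; exact permutation p = 0.9, adjusted 0.9). By merged exons the WT level of Myl2 to Mylpf was 2.49 and the other ratios moved by less than 1.5 times.

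**Figure D4:**
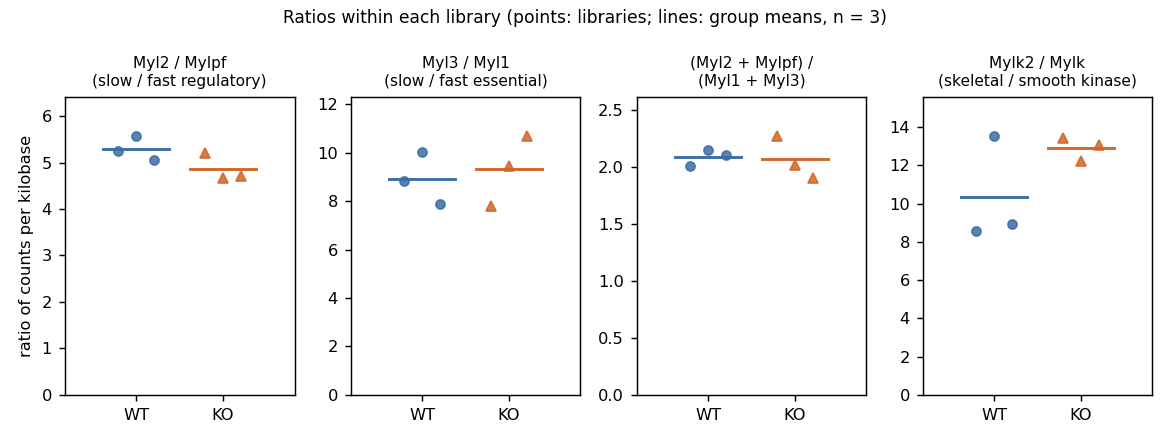
The 4 within-library ratios of counts per kilobase (vertical axes, each from 0) in 3 WT (circles) and 3 KO (triangles) libraries, with lines at the group means. The groups overlap in each panel; for Mylk2 to Mylk, WT replicates 1 and 3 lie below the other 4 libraries.

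The kinases differed from each other in how steady they were. Mylk2, the calcium-activated kinase of skeletal muscle (ENSMUSG00000027470, chromosome 2, 152911352 to 152923068, plus strand), was at 101, 110 and 104 CPM in WT and at 98.2, 118 and 115 CPM in KO replicates 1, 2 and 3. KO replicate 1 was the lowest of the 6 and the other KO libraries were the highest. Its log2 difference was 0.072 ± 0.083 (SE) with an adjusted p of 0.993 in edgeR's quasi-likelihood test. Mylk, the kinase of smooth muscle and non-muscle cells (ENSMUSG00000022836, chromosome 16, 34745210 to 35002420, plus strand), was at 31.2, 21.5 and 30.9 CPM in WT and at 19.4, 25.6 and 23.3 CPM in KO. WT replicates 1 and 3 lay above all KO libraries, and WT replicate 2 lay below 2 of them. The log2 difference of Mylk was -0.29 ± 0.15 (SE), with an unadjusted p of 0.0692, the smallest among the members, and an adjusted p of 0.989 in edgeR's quasi-likelihood test.

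WT replicate 2 carried much of that overlap. Without it the log2 difference of Mylk was -0.45 with an unadjusted p of 0.0029 in edgeR's quasi-likelihood test, which still did not pass (adjusted p = 0.999). WT replicate 2 was the lowest WT library for Mylk, so leaving it out was bound to widen the difference. Leaving out WT replicate 1 or 3 instead gave -0.21 each. Leaving out KO replicate 1, 2 or 3 gave -0.19, -0.39 and -0.31. The ratio of Mylk2 to Mylk per kilobase was 8.55, 13.6 and 8.92 in WT and 13.4, 12.2 and 13.04 in KO replicates 1, 2 and 3, so that WT replicate 2 had the highest value of all 6 and the other WT libraries the lowest. Its log2 difference was 0.35 (exact permutation p = 0.4, adjusted 0.8), and 0.56 without WT replicate 2. Without WT replicate 1 or 3 it was 0.23 and 0.26. The counts do not separate the long and short products of Mylk.

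Light chains of smooth muscle and other cells stood at low levels. Myl9, the smooth muscle regulatory chain (ENSMUSG00000067818, chromosome 2, 156775420 to 156781658, plus strand), was at 20.6, 23.0 and 28.5 CPM in WT and at 23.1, 24.3 and 24.5 CPM in KO. All KO libraries lay inside the WT range, and the log2 difference was -0.0075 ± 0.12 (SE). Myl6, the essential chain of smooth muscle and non-muscle cells (ENSMUSG00000090841, chromosome 10, 128490860 to 128494145, minus strand), was at 31.6, 34.3 and 39.3 CPM in WT and at 40.1, 40.4 and 36.4 CPM in KO. KO replicates 1 and 2 lay above every WT library and KO replicate 3 lay inside the WT range. The log2 difference of Myl6 was 0.15 ± 0.099 (SE), with an adjusted p of 0.989 (0.148 unadjusted) in edgeR's quasi-likelihood test. Its neighbour Myl6b (ENSMUSG00000039824, chromosome 10, 128494157 to 128498685, minus strand) lies just upstream of Myl6, at higher coordinates on the same strand. Myl6b had 51, 47 and 52 counts in WT and 73, 45 and 52 in KO, so that only KO replicate 1 stood out.

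Markers of smooth muscle and pericytes are given beside these members. All 9 summed to 2822 to 3176 CPM in WT and 3012 to 3173 CPM in KO, most of it from Des, which skeletal muscle also makes. The pericyte gene Rgs5 was at 445 ± 20.0 (WT) and 440 ± 29.5 CPM (KO) (SD, n = 3 each). Without Des and Rgs5, a choice made after their levels were seen, the other 7 (Acta2, Myh11, Tagln, Cnn1, Smtn, Lmod1 and Pdgfrb) summed to 171 to 173 CPM in WT and 143 to 169 CPM in KO. Myh11, the smooth muscle heavy chain, was at 49.7, 46.2 and 42.6 CPM in WT and at 30.8, 46.3 and 30.5 CPM in KO (unadjusted p = 0.0442, adjusted p = 0.989, edgeR's quasi-likelihood test). KO replicates 1 and 3 were low for Myh11 and KO replicate 2 was not. Of the 8 markers tested, 0 were called; 2 estimates were above 0 and 6 below, with a median of -0.04. Without Des and Rgs5 these were 1 and 5, with a median of -0.08. Cnn1 was near the floor at 0 to 7 counts. The part of these markers in the Mylk values was not tested.

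**Figure D5:**
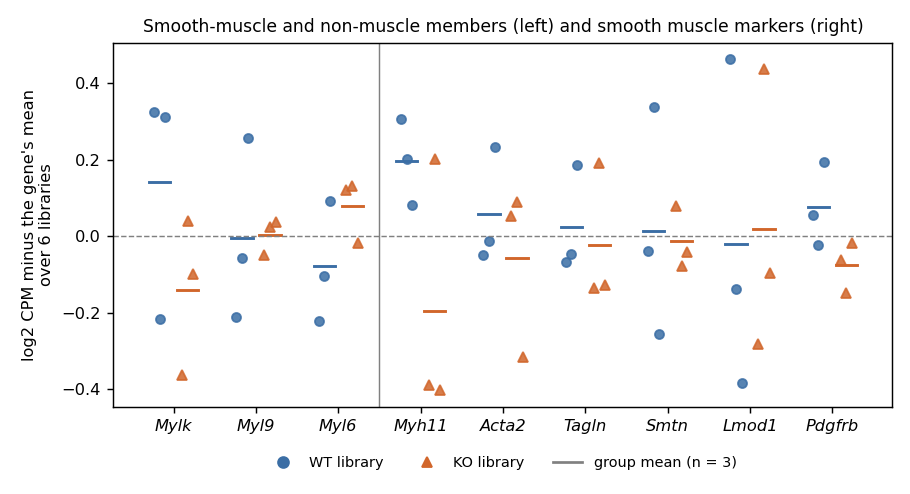
Log2 CPM of each gene minus its mean over the 6 libraries (vertical axis) for Mylk, Myl9 and Myl6 (left of the line) and for 6 smooth muscle and pericyte markers (right), in WT (circles) and KO (triangles) with lines at the group means. The WT and KO libraries overlap for each of the 9 genes.

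Myl4, the essential chain of embryonic muscle and of atria (ENSMUSG00000061086, chromosome 11, 104550663 to 104595753, plus strand), had 66, 51 and 74 counts in WT and 53, 60 and 57 in KO, or 8.84, 6.97 and 9.38 CPM against 6.27, 7.25 and 7.06 CPM. WT replicates 1 and 3 were the highest and WT replicate 2 lay below 2 KO libraries, the same arrangement as for Mylk. Its log2 difference was -0.29 ± 0.17 (SE), with an adjusted p of 0.989 (0.104 unadjusted) in edgeR's quasi-likelihood test, and -0.41 without WT replicate 2. Without WT replicate 1 or 3 it was -0.26 and -0.21. Counts were also assigned to genes of developing fibres. The embryonic heavy chain gene Myh3 was at 46.1 ± 6.82 (WT) and 47.1 ± 8.92 CPM (KO), and the perinatal Myh8 at 410 ± 11.7 and 397 ± 9.87 CPM (SD, n = 3 each). Stretches shared with other heavy chain genes were not measured for Myh3 and Myh8, so their levels carry that uncertainty. The fetal acetylcholine receptor gene Chrng had 0 to 2 counts per library. Of the 5 tested genes of that marker list 0 were called, with 3 higher and 2 lower by estimate.

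Light chains outside the 10 members were read from a list of Myl7, Myl10, Myl12a and Myl12b, of which 3 were tested and 0 called. Myl12a, a non-muscle regulatory chain, was at 784 ± 78.9 (WT) and 806 ± 25.7 CPM (KO), while its near copy Myl12b was at 26.8 ± 1.55 and 29.1 ± 1.77 CPM (SD, n = 3 each). Per kilobase of the first-listed transcript Myl12a thus stood at 800 ± 80.5 in WT, between Mylpf and Myl1. By merged exons it stood at 233 ± 23.5, closer to Myl1 at 204 ± 10.5. Of the 50-base stretches of Myl12a and Myl12b, 21.1% and 25.4% occur in transcripts of other genes, each other among them. How reads were split between Myl12a and Myl12b is therefore uncertain. Other genes share 19.9% of the exonic bases of Myl12a, among them Myom1, an M-band gene on the opposite strand. Reads of Myl12a and Myom1 cannot be told apart where they overlap. Myl10 was at 7.86 ± 1.84 and 6.67 ± 1.18 CPM.

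The other genes that control light chain phosphorylation held 0 calls among 12 tested kinases and upstream genes, of 13 listed. The estimates of 4 were above 0 and of 8 below, and the median was -0.04. Groups did not overlap for 1 with KO above, against 4.96% of all genes, and for 2 with KO below, against 5.45%. Mylk4, a muscle member of the kinase family, had the smallest p of the list: it had 94, 60 and 43 counts in WT and 141, 92 and 114 in KO, a log2 difference of 0.68 ± 0.28 (SE) with an adjusted p of 0.989 (0.0448 unadjusted) in edgeR's quasi-likelihood test. KO replicate 2 lay inside the WT range of Mylk4. It passed in 1 of 14 alternatives, edgeR with low-count genes kept in (adjusted p = 0.0215). Cdc42bpb, Cdc42bpa and Rock2, other kinases of the list, had log2 differences of -0.19, -0.14 and -0.11, none of which passed. The cardiac kinase gene Mylk3 was at 3.67 ± 0.342 and 3.47 ± 0.90 CPM (SD, n = 3 each).

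Myosin phosphatase held 0 calls among 6 tested genes of 7, with 1 estimate above 0 and 5 below and a median of -0.05. Ppp1r14b, a phosphatase inhibitor, was at 12.7 ± 0.466 (WT) and 15.5 ± 1.28 CPM (KO) (SD, n = 3 each) without overlap, KO above. It had an adjusted p of 0.989 (0.0354 unadjusted) in edgeR's quasi-likelihood test. Groups did not overlap for 1 of the 6 with KO above, against 4.96% of all genes, and for 0 with KO below, against 5.45%. The catalytic subunit gene Ppp1cb was at 408 ± 26.1 and 383 ± 22.8 CPM, the muscle targeting subunit gene Ppp1r12b at 393 ± 25.1 and 373 ± 17.8 CPM, and Ppp1r12c at 23.2 ± 3.32 and 21.7 ± 0.966 CPM.

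Heavy chains, which the light chains bind, had 0 calls among 12 tested, with 3 estimates above 0 and 9 below and a median of -0.05. Among them Myh1 of type IIX fibres had a log2 difference of 0.36 ± 0.11 (SE) with all KO values above WT, Myh2 of type IIA fibres -0.15 ± 0.075 with all KO values below WT, and Myh4 of type IIB fibres 0.69 ± 0.36. Groups did not overlap for 1 of the 12 with KO above, against 4.96% of all genes, and for 1 with KO below, against 5.45%. Myh1 passed in 1 of 14 alternatives, edgeR with low-count genes kept in (adjusted p = 0.0013). The fast light chain genes Mylpf and Myl1 had log2 differences of 0.13 and -0.0019. Among 10 fast fibre markers 8 estimates were above 0 and 2 below, with a median of 0.10 and 0 calls in edgeR. Actn3 and Pvalb of fast fibres had log2 differences of 1.38 ± 0.24 and 0.87 ± 0.17 (SE), and each was called in 3 of 14 alternatives. Of 7 slow fibre markers tested, 2 estimates were above 0 and 5 below, with a median of -0.04 and 0 calls in edgeR. KO lay above WT without overlap for 0 of the 7, against 4.96% of all genes, and below for 1, against 5.45%. The slow fibre marker Pln had a log2 difference of -0.43 ± 0.11 (SE) and was called in 1 of 14 alternatives. Another, Tnni1, had one of 0.17 ± 0.080 (SE). The part of these genes in the Mylpf values was not tested.

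Genes with the pattern most like 3 members over the 6 libraries were found by the smallest root mean square difference of log2 CPM, each centred on its own mean, among 13846 other genes. For Myl2 these were Suclg2 at 0.011 and Map3k4 at 0.018, for Mylpf Epm2a at 0.011 and Pgam5 at 0.019, and for Mylk2 Snx17 at 0.021 and A230051G13Rik at 0.021 log2 units. The members' own spread over the 6 libraries was 0.070, 0.084 and 0.096 log2 units on the same measure. As many as 149, 146 and 115 genes lay within 0.05 log2 units of Myl2, Mylpf and Mylk2, so that the leading names are a description of 6 libraries only.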

How the data were processed

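The deposited table holds the authors' raw counts per Ensembl gene for 6 libraries, beside the authors' log2 fold change, log2 mean CPM, and p-value with its adjusted value. TopHat 1.3.3, edgeR and mm10 are listed, per the submitters' processing notes; the sources used here do not name the read counter or annotation. Of 37506 rows 29 repeated 14 IDs with identical counts and were dropped, leaving 37477. The first-listed transcript was chosen as the length after the data were seen, since merged exons hold retained introns. Lengths, coordinates and coding sequences came from GENCODE M21 (GRCm38, the assembly mm10 names). edgeR 4.0.16 (filterByExpr, TMM factors 0.968 to 1.037, robust quasi-likelihood F-test on genotype, Benjamini-Hochberg over 13848 genes) was run in R 4.3.3; CPM use TMM-scaled library sizes. The standard error is the log2 difference divided by the square root of F. The test was tested on simulated data; false calls were near the nominal share when all genes followed one trend of spread, and above it when each gene had its own spread, and the bound set on that share was revised after a first version exceeded it. Replicates differed by more than sampling noise (chi-square per gene 3.46 to 9.57). Alternatives were RLE, upper-quartile and no scaling, other filters, DESeq2 1.42.0, limma voom 3.58.1, a replicate block, leaving out each library, summed counts for the ratios and, added after seeing the data, merged exon length (also for levels). Named were all members and up to 4 genes of each pathway list with the smallest p. Up to 3 of the most abundant genes of each marker list used were also named. So were the 2 genes most like each of Myl2, Mylpf and Mylk2 (mean of at least 1 CPM, pseudocount 0.5 CPM). Myh3, Myh8, Chrng, Cnn1, Mylk3, Tnnc1, the scarcer heart markers, Pvalb, Actn3, Pln and Tnni1 were added after their values were seen. The same holds for Tnni2, Tnnc2 and Atp2a1. Members and lists were chosen with earlier results of these data known. Some genes of these lists are not reported here.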

Additional observations from a re-analysis of the deposited data

How the results depend on the processing

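No member was called under any of 14 alternatives (lowest adjusted p 0.738, for Mylk without KO replicate 2, in edgeR's quasi-likelihood test). Over all genes the call count of 0 became 19 without the filter on low counts, 3 with DESeq2 and 1 with limma voom, and 0 to 3 when a library was left out (3 without WT replicate 1). Mylpf, Myl4, Myl6, Mylk2 and Mylk kept their sign in all 14. Myl1, near 0, turned to 0.0011 with RLE, 0.0051 with upper-quartile and 0.013 with no scaling, 0.0078 without the filter and 0.00090 with DESeq2. Myl9, also near 0, turned to 0.0060 with no scaling, 0.0019 without the filter and 0.0036 with limma voom. With libraries left out, log2 differences ran from -0.045 to 0.030 for Myl1, -0.043 to 0.075 for Myl2, -0.018 to 0.14 for Myl3, -0.16 to 0.19 for Myl6b and -0.11 to 0.14 for Myl9. The log2 differences of Myl3 to Myl1 (-0.049 to 0.18) and of regulatory to essential chains (-0.091 to 0.037) also changed sign. Myl2 to Mylpf (-0.17 to -0.083) and Mylk2 to Mylk (0.23 to 0.56) kept theirs. Whether libraries of the same number share more than a number is not stated. Their deviations from group means correlated at -0.013, 0.168 and 0.034, against -0.169 to 0.143 for pairs of unlike number. These values cannot show whether the libraries were paired. With the replicate block 0 genes were called, Myl9 stood at 0.0013, and the ratios had exact sign-flip p-values that cannot go below 0.25. The cause of these shifts was not tested. Counting error was largest for Myl4 and Myl6b, and the other members rest on at least 154 counts per library. Among those, Myl9 and Myl6 varied by 3.23% and 5.69% between KO libraries, where counting error alone gives 7.11% and 5.57%. Between WT libraries they varied by 16.9% and 11.1%, where it gives 7.41% and 6.14%.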
